A study of Mus musculus with 12 samples.

Results

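Expanded CAG repeats gain and lose units in somatic cells, and the genes examined here encode the DNA repair proteins known to modify that instability. The set held 8 genes: Msh3, Msh6, Mlh3, Pms1, Pms2, Fan1, Lig1 and Ogg1. They were taken by gene symbol out of the 55401 Ensembl gene identifiers in the deposited read counts, and all 8 passed the filter on low counts, as did 19378 genes in all. The libraries came from whole cerebellum of 12 mice, 1 library per mouse and 4 mice per group. The Het DMSO and Het Hit 2 groups were heterozygous Atxn1154Q/2Q knock-in mice, which model spinocerebellar ataxia type 1 by carrying a long CAG tract in 1 copy of Atxn1, and the WT DMSO group was wild type. Hit 2, the compound under study, was injected into the abdominal cavity from a solution of 25 mg/ml in dimethyl sulfoxide (DMSO). All 3 groups received the solvent, kept under 4 ml/kg, because the controls were injected with DMSO alone. Treatment started at 18 weeks of age and ran as daily injections over 5 days, 2 days of rest and 5 further days, and tissue was taken at 20 weeks. Wild-type mice given Hit 2 were not analysed here, and no value below measures the length of the repeat itself.

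Mismatch repair proteins find small loops and mispairs in DNA. A MutS complex binds the mismatch: complexes that hold Msh3 bind larger loops, and those that hold Msh6 bind single mispairs and small loops. A MutL complex is then recruited, which holds Pms2, Pms1 or Mlh3, and the Pms2 and Mlh3 complexes cut the strand that is to be removed. At CAG repeats the pathway is known for driving expansion through Msh3 and the MutL proteins, and Fan1, a nuclease of crosslink repair, is known to oppose it. In the cerebellum, spinocerebellar ataxia type 1 affects Purkinje cells, the output neurons of the cerebellar cortex.

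A pair of Het DMSO libraries stood apart from the other 10, so the fold changes of the 8 genes in which they enter are also given without them. Library 411 (libraries carry the animal's number) had a summed level of 7 Purkinje cell markers of 531 CPM, the unit of all levels below (reads of a gene relative to the scaled size of its library), against 3098 to 7477 in the other 10 libraries and 6635 in library 409. Its 8 granule cell markers summed to 101 CPM, against 3641 to 6230 in the other 10 and 8091, the highest, in library 409. Library 409 had 0.0795% of its gene reads on the mitochondrial genome, where the other 11 libraries had 1.85% to 2.81%. Library 411 thus held little signal of the main neurons of the labelled tissue, although no Purkinje or granule cell marker was at 0 reads in any library. Its 6 midbrain markers summed to 102 CPM, against 14.1 to 64.1 in the other 10 and 28.2 in library 409. Of these, Slc6a3, Foxa1 and Pitx3 were at 0 reads in at least 1 library. Its oligodendrocyte, microglial and endothelial sums were also above the other 11 libraries, and its astroglial, choroid plexus and blood sums were not. Reads assigned to genes ranged from 15855751 to 45265719 per library. In RNA from bulk tissue, fewer cells of a type and less RNA per cell cannot be told apart. Whether the tissue taken for library 411 differed from that of the other libraries was not tested.

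None of the 8 genes differed between groups past the threshold, an adjusted p of 0.05 over all genes tested. With edgeR's quasi-likelihood test and Benjamini-Hochberg adjustment, 0 of 8 were called in Het DMSO against WT DMSO, where 0.00516% of all genes tested were called. Hit 2 against DMSO in Het mice gave 0 of 8, with 0.0% of all genes called, and Het Hit 2 against WT DMSO gave 0 of 8, with 0.00516% of all genes called. A single test of any difference over the 3 groups also called 0 of 8 and 0.00516% of all genes. At an unadjusted p under 0.05 the count was 0 of 8 in each pairwise comparison, against 7.11%, 1.55% and 1.71% of all genes, and 0 of 8 over the 3 groups, against 3.11%. DESeq2 and limma with a quality weight per library called 0 of the 8 as well, where DESeq2 called 0.222%, 0.0% and 0.124% of all genes in the 3 comparisons and limma 0.506%, 0.0% and 1.14%. Read by library, 1 of the 8 had groups that did not overlap in Het DMSO against WT DMSO, with the Het libraries lower, where 2.45% of all genes were lower without overlap and 1.94% higher. That gene, Pms1, was also the 1 without overlap in Het Hit 2 against WT DMSO, where 3.42% of all genes were lower and 2.9% higher. Between the 2 Het groups 0 of 8 were without overlap, against 0.392% of all genes lower and 0.635% higher. Adjusted p-values of the 8 ran from 0.616 to 0.822, from 0.898 to 0.964 and at 0.999927 in the 3 comparisons. These comparisons share groups, so their values are not independent of each other.

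The 8 fold changes lay on both sides of zero in each comparison. In Het DMSO against WT DMSO, 3 genes had a log2 fold change above zero and 5 below, with a median of -0.10 where the median of all genes tested was 0.05. For Het Hit 2 against Het DMSO, 4 were above and 4 below, with a median of 0.02 against -0.04 for all genes. For Het Hit 2 against WT DMSO, 3 were above and 5 below, with a median of -0.03 against 0.02. The sizes of these differences were like those of other genes: the median absolute log2 fold change of the 8 was 0.25, 0.14 and 0.09 in the 3 comparisons, and that of all genes was 0.24, 0.20 and 0.12. The median standard error (SE) was 0.17 for the 8 genes in each comparison and 0.26 for all genes.

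**Figure D1:**
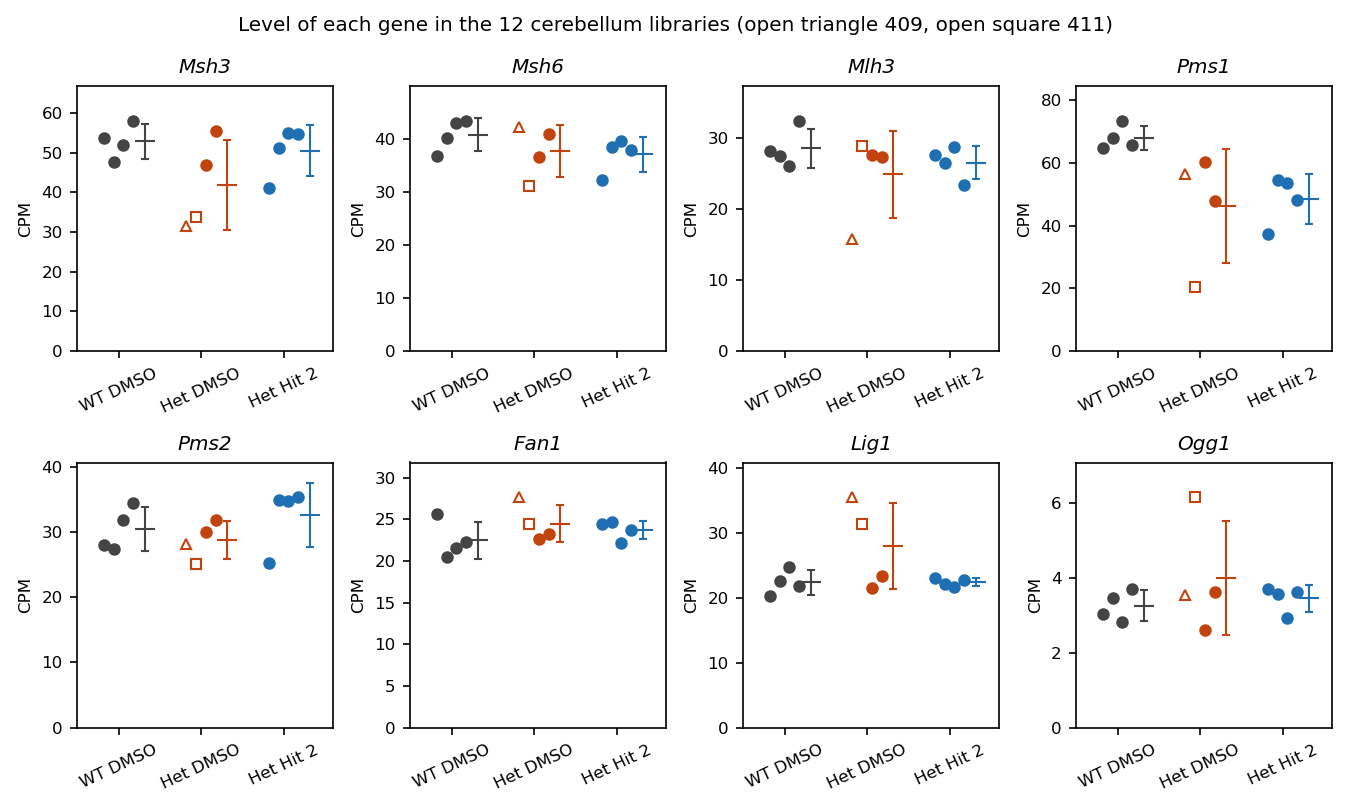
Level of each of the 8 genes in CPM (vertical axes, each starting at 0) in the WT DMSO, Het DMSO and Het Hit 2 libraries. Points are libraries, the bar and whiskers are the group mean and SD, and open symbols mark libraries 409 (triangle) and 411 (square). The Pms1 points of both Het groups lie under all 4 WT points, and the open symbols are the lowest for Msh3 and the highest for Lig1.

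Msh3 encodes the MutS subunit known for binding larger loops. It stood at 53.8, 47.5, 52.0 and 58.1 CPM in WT DMSO libraries 413, 425, 426 and 431. In Het DMSO it stood at 31.4 and 33.8 CPM in libraries 409 and 411 and at 46.8 and 55.4 CPM in libraries 420 and 429. The Het Hit 2 values were 41.2, 51.2, 54.9 and 54.7 CPM in libraries 410, 421, 422 and 430. Libraries 409 and 411 were lower than the other 10, a pattern that 13.7% of all genes tested showed, and the groups overlapped. The log2 fold change was -0.34 (SE 0.18, 95% interval -0.72 to 0.05, adjusted p 0.616) in Het DMSO against WT DMSO, and 0.27 (SE 0.18, interval -0.11 to 0.66, adjusted p 0.898) for Hit 2 against DMSO in Het mice. Without libraries 409 and 411 these values were -0.06 (SE 0.12) and -0.02 (SE 0.12), and the second was 0.15 without library 409 alone and 0.16 without library 411 alone. Without library 429 the second was 0.44 (unadjusted p 0.0219, adjusted p 0.624). Het Hit 2 and WT DMSO differed by -0.07 on the log2 scale (SE 0.18, interval -0.45 to 0.32). The Msh3 log2 fold changes ran over 24 alternatives (other processing or libraries left out) from -0.50 (without library 429) to -0.04 (limma's weights) in Het DMSO against WT DMSO, from -0.02 (without libraries 409 and 411) to 0.44 (without library 429) between the Het groups and from -0.15 (without the WT libraries read as female) to 0.01 (without library 410) in Het Hit 2 against WT DMSO. In Msh3, 0.401% of reads lay on the other strand.

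Msh6 encodes the MutS subunit for single mispairs and small loops. It stood at 36.7, 40.1, 42.9 and 43.4 CPM in WT DMSO libraries 413, 425, 426 and 431. Libraries 409, 411, 420 and 429 of the Het DMSO group had 42.2, 31.1, 36.6 and 40.8 CPM. Libraries 410, 421, 422 and 430 of the Het Hit 2 group had 32.3, 38.4, 39.6 and 38.0 CPM. The groups overlapped, with libraries 411 and 410 the lowest. Its log2 fold change was -0.11 (SE 0.12, interval -0.38 to 0.15) in Het DMSO against WT DMSO and -0.02 (SE 0.12, interval -0.29 to 0.24) in Het Hit 2 against Het DMSO. Omitting libraries 409 and 411, these values were -0.08 (SE 0.10) and -0.07 (SE 0.10). Without library 411 alone they were -0.01 and -0.14. The value between the Het groups turned to 0.03 without library 409, to 0.02 without library 410 and to 0.02 without library 429. Against WT DMSO, Het Hit 2 differed by -0.14 (SE 0.12, interval -0.40 to 0.13), and by -0.09 without library 410. The Msh6 values ran over 24 alternatives from -0.18 (without library 409) to -0.01 (without library 411) in Het DMSO against WT DMSO, from -0.14 (without library 411) to 0.06 (unstranded counts) between the Het groups and from -0.19 (without library 413) to -0.07 (1 surrogate variable) in Het Hit 2 against WT DMSO. A share of 10.9% of Msh6 reads lay on the other strand. Its exons overlap 34 bases of Fbxo11 there in the GENCODE M21 annotation. Unstranded counts, which leave out reads over exons of both genes, were 110.9% of the stranded counts of Msh6. Most of the reads on the other strand thus lay outside that overlap, and their source was not tested. Counting without strand turned the -0.02 between the Het groups to 0.06, with no call.

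The Msh6 promoter is shown because its GC boxes lie in close array. It covers the 250 bases before the start, at chr17:87974800-87975049 of GRCm38.p6 on the plus strand (RefSeq), written 5′ to 3′. Capitals mark GC boxes (GGGCGG, or CCGCCC when read on the other strand) and a CCAAT box (CCAAT, or ATTGG when read on the other strand).
Msh6: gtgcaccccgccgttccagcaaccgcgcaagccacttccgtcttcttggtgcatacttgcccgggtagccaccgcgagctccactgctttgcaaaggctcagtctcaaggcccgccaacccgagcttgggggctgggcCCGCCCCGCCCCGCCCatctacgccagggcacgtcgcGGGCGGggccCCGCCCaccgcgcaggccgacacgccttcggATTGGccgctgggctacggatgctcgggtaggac
Of the 8 genes, 4 held a GC box at their first listed start (Msh3, Msh6, Ogg1 and Pms2) and 5 a CCAAT box (Mlh3, Msh6, Ogg1, Pms1 and Pms2). Of all 32851 RefSeq windows of the same length, searched on both strands, 32.7% held a GC box and 33.8% a CCAAT box. A match of letters is a description and not evidence of binding.

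The balance of Msh3 to Msh6 reads is of interest because the proteins belong to alternative MutS complexes. The ratio of their reads was 1.30 ± 0.129 (SD, n = 4) in WT DMSO, 1.12 ± 0.272 (SD, n = 4) in Het DMSO and 1.36 ± 0.0695 (SD, n = 4) in Het Hit 2. Within Het DMSO it was 0.745 in library 409, 1.09 in library 411, 1.28 in library 420 and 1.36 in library 429. The other 10 libraries all lay between 1.19 and 1.47.

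Pms1 encodes a MutL subunit that lacks the nuclease site of its relatives, and it was the 1 gene of the 8 that was lower in every Het library than in every WT library. It stood at 64.8, 68.1, 73.6 and 65.6 CPM in WT DMSO libraries 413, 425, 426 and 431. Levels in Het DMSO were 56.4, 20.4, 60.5 and 48.0 CPM in libraries 409, 411, 420 and 429. Levels in Het Hit 2 were 37.3, 54.6, 53.7 and 48.3 CPM in libraries 410, 421, 422 and 430. Every one of the 8 Het libraries was below every WT library, a pattern that 228 of the 19378 genes tested (1.18%) showed. Group means were 68.0 ± 3.97, 46.3 ± 18.0 and 48.5 ± 7.93 CPM (SD, n = 4 each) for WT DMSO, Het DMSO and Het Hit 2.

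The Pms1 difference did not pass the test over all genes. In Het DMSO against WT DMSO the log2 fold change was -0.55 (SE 0.26, adjusted p 0.616), with a 95% interval from 2.19-fold lower to 1.02-fold higher. Against WT DMSO, Het Hit 2 stood at -0.49 (SE 0.26, adjusted p 0.999927), with an interval from 2.09-fold lower to 1.06-fold higher. The 2 Het groups differed by 0.07 (SE 0.26, interval -0.51 to 0.64; adjusted p 0.955). Library 411 carried much of the spread. Without libraries 409 and 411, Het Hit 2 against WT DMSO was -0.50 (SE 0.12, unadjusted p 0.00169, adjusted p 0.130) and Het DMSO against WT DMSO -0.34 (SE 0.15, unadjusted p 0.0435, adjusted p 0.835). Over the alternatives its adjusted p in the Hit 2 to WT contrast ranged from 0.111, from limma with a quality weight per library, to 1. Without both 409 and 411, the value for Het Hit 2 against Het DMSO turned from 0.07 to -0.16 (SE 0.15). When library 411 alone was left out, Het DMSO against WT DMSO was -0.29, and Het Hit 2 against Het DMSO was -0.21 (SE 0.14). The Pms1 values ran over 24 alternatives from -0.71 (without library 420) to -0.29 (without library 411) in Het DMSO against WT DMSO, from -0.21 (without library 411) to 0.22 (without library 420) between the Het groups and from -0.55 (without library 421) to -0.35 (1 surrogate variable) in Het Hit 2 against WT DMSO. WT libraries 425 and 426 were read as female from Xist and Y-linked transcripts and all Het libraries as male; without these 2, Het DMSO against WT DMSO was -0.49 (SE 0.36) and Het Hit 2 against WT DMSO -0.43 (SE 0.36).

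Purkinje cell markers were lowest in the libraries that were lowest for Pms1. The 7 markers (Pcp2, Calb1, Car8, Ppp1r17, Itpr1, Pvalb and Rgs8) summed to 7155 to 7477 CPM in WT DMSO, 531 to 6635 CPM in Het DMSO and 3098 to 6192 CPM in Het Hit 2. None of the 7 was called in any comparison, and all 7 had log2 fold changes below zero in both Het groups against WT DMSO, with medians of -1.06 and -0.59. At an unadjusted p under 0.05 in edgeR's test over all 12 libraries was Calb1 alone, in Het DMSO against WT DMSO. Without libraries 409 and 411 the medians were -0.63 and -0.60, and 0 of the 7 were called. In that fit all but Pvalb were at an unadjusted p under 0.05 in Het DMSO against WT DMSO, and all 7 in Het Hit 2 against WT DMSO. Of the 20105 genes tested in that fit, 1172 and 1910 were at that p. The 4 libraries lowest for Pms1 (411, 410, 429 and 430) were the 4 lowest for the Purkinje sum, in the same order. The 4 WT libraries were the 4 highest for both. Granule cell markers were also lowest in libraries 411, 410 and 430, at 101, 3641 and 3946 CPM, and summed to 5338 CPM in library 429. Astroglial markers also summed lower in all Het libraries (1930 to 2450 CPM in Het DMSO and 2154 to 2306 CPM in Het Hit 2) than in all WT libraries (2472 to 2696 CPM). In Het Hit 2 against WT DMSO, 8 of 8 astroglial and 8 of 8 granule cell markers had log2 fold changes below zero, with 0 called. Oligodendrocyte markers summed to 6522 CPM in library 411 and 5452 CPM in library 410, above the 3361 CPM at the top of the WT range. The part of RNA from these cell types in the Pms1 values was not tested.

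**Figure D2:**
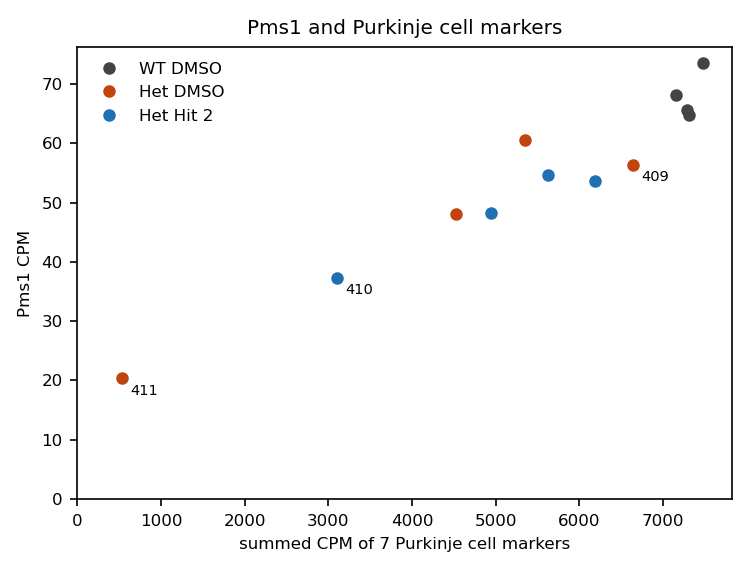
Pms1 level (vertical axis) against the summed level of 7 Purkinje cell markers (horizontal axis) in the 12 libraries, both in CPM from 0. Points are libraries coloured by group; library 411 is at the lower left at 20.4 CPM of Pms1, and the 4 WT libraries are at the upper right.

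The genes whose log2 CPM followed Pms1 most closely over the 12 libraries, of 13431 protein-coding genes with a mean of at least 1 CPM, were Slc9a3 (Pearson r 0.993) and Tuba8 (r 0.988). Without libraries 409 and 411 the r values were 0.982 and 0.970. The next gene on the opposite strand, Ormdl1, starts 77 bases from Pms1. Its r with Pms1 was 0.21 over 12 libraries and -0.37 over 10. Ormdl1 stood at 4.30 to 4.96 CPM in WT DMSO and at 1.97 to 6.10 CPM in Het DMSO, where libraries 409 and 411 were the lowest 2 of the 12. Its lowest Het Hit 2 library stood at 4.69 CPM.

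Since Pms1 and Ormdl1 lie so close and differed in pattern, the bases before the Pms1 start are shown. They cover chr1:53297029-53297094 of GRCm38.p6 on the minus strand (RefSeq), with capitals on a pair of CCAAT boxes in opposite orientation.
Pms1: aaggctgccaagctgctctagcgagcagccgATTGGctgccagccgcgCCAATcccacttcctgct
Pms2 has a similar layout, with the gene Aimp2 starting 117 bases away on the other strand, and the 116 bases from -153 to -38 relative to its start are shown for comparison. They lie at chr5:143909848-143909963 of GRCm38.p6 on the plus strand (RefSeq), with capitals on CCAAT and GC boxes. Another CCAAT box lies at -33 to -29, between this stretch and the start.
Pms2: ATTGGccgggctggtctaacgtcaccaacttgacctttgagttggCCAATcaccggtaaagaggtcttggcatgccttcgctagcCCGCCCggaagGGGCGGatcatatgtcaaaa
Aimp2 stood at 10.2 to 11.6 CPM in WT DMSO, 10.2 to 13.6 CPM in Het DMSO and 10.2 to 12.9 CPM in Het Hit 2, with an r to Pms2 of 0.31 over 12 libraries and 0.69 over 10. Neither promoter held a TATA box (TATAAA) or a cyclic AMP response element (TGACGTCA) in the 250 bases before the start. These letters were found in 12.4% and 1.55% of all windows and in 0 of the 8 genes.

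Pms2 encodes the nuclease subunit of the main MutL complex. It stood at 28.0, 27.3, 31.8 and 34.5 CPM in WT DMSO libraries 413, 425, 426 and 431. Het DMSO libraries 409, 411, 420 and 429 gave 28.1, 25.0, 30.0 and 31.8 CPM. Het Hit 2 libraries 410, 421, 422 and 430 gave 25.2, 34.9, 34.7 and 35.3 CPM. Library 410 was well under the other 3 of its group, which themselves were the highest 3 of the 12, and the groups overlapped. On the log2 scale the fold change was -0.08 (SE 0.14, interval -0.38 to 0.22) in Het DMSO against WT DMSO, 0.18 (SE 0.14, interval -0.12 to 0.48) in Het Hit 2 against Het DMSO and 0.10 (SE 0.14, interval -0.20 to 0.40) in Het Hit 2 against WT DMSO. The first of these turned to 0.02 (SE 0.14) and the second was 0.07 (SE 0.14) without libraries 409 and 411. Leaving out library 411 alone gave -0.0046 and 0.09, and leaving out library 410 moved the Het Hit 2 values to 0.27 and 0.19. The Pms2 values ran over 24 alternatives from -0.13 (without library 429) to 0.05 (limma's weights) in Het DMSO against WT DMSO, from 0.07 (without libraries 409 and 411) to 0.27 (without library 410) between the Het groups and from 0.05 (without library 430) to 0.19 (without library 410) in Het Hit 2 against WT DMSO. Exons of Gm42421 on the same strand overlap 394 bases of Pms2, 4.85% of its exon length, and reads over both genes are counted for neither.

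Pms1 and Pms2 belong to alternative MutL complexes. The ratio of Pms1 to Pms2 reads was 2.31, 2.49, 2.32 and 1.90 in WT DMSO libraries 413, 425, 426 and 431. It was 2.00, 0.815, 2.02 and 1.51 in Het DMSO libraries 409, 411, 420 and 429. It was 1.48, 1.57, 1.55 and 1.37 in Het Hit 2 libraries 410, 421, 422 and 430. All 4 Het Hit 2 ratios were below all 4 WT ratios, and Het DMSO overlapped both groups. The difference in this ratio was not tested.

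Mlh3 encodes the MutL subunit that works with Msh3 at loops and in meiotic crossing over. It stood at 28.1, 27.4, 26.0 and 32.4 CPM in WT DMSO libraries 413, 425, 426 and 431. Among Het DMSO mice the levels were 15.8, 28.8, 27.6 and 27.2 CPM in animals 409, 411, 420 and 429. Among mice given Hit 2 the levels were 27.5, 26.4, 28.7 and 23.3 CPM in animals 410, 421, 422 and 430. Library 409 alone was far under the rest, and the other 11 libraries lay between 23.3 and 32.4 CPM. Fitted log2 fold changes were -0.20 (SE 0.18, interval -0.58 to 0.18) in Het DMSO against WT DMSO, 0.10 (SE 0.18, interval -0.29 to 0.48) in Het Hit 2 against Het DMSO and -0.10 (SE 0.18, interval -0.49 to 0.28) in Het Hit 2 against WT DMSO. Without library 409 the first of these was -0.04 and the second turned to -0.07, and without both 409 and 411 they were -0.06 (SE 0.11) and -0.05 (SE 0.11). The Mlh3 values ran over 24 alternatives from -0.35 (1 surrogate variable) to -0.02 (limma's weights) in Het DMSO against WT DMSO, from -0.07 (without library 409) to 0.15 (without library 411) between the Het groups and from -0.20 (1 surrogate variable) to -0.04 (without library 431) in Het Hit 2 against WT DMSO. The Mlh3 window held GCGCCTGCGC at both listed starts, a match to the letters of the factor NRF1, whose motif was found in 3.74% of all windows and in none of the other 7 genes.

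Fan1, the nuclease known to hold CAG expansion back, had the narrowest spread of the set over all 12 libraries. It stood at 25.7, 20.4, 21.5 and 22.3 CPM in WT DMSO libraries 413, 425, 426 and 431. The Het DMSO values were 27.7, 24.4, 22.6 and 23.3 CPM in libraries 409, 411, 420 and 429. The Het Hit 2 values were 24.4, 24.7, 22.2 and 23.7 CPM in libraries 410, 421, 422 and 430. The 3 groups overlapped throughout, and the coefficient of variation (SD as a percent of the mean) over the 12 libraries was 8.31%, where the median over all genes tested was 25.2%. The fitted log2 fold change was 0.12 (SE 0.11, interval -0.12 to 0.37) in Het DMSO against WT DMSO, -0.05 (SE 0.11, interval -0.29 to 0.20) in Het Hit 2 against Het DMSO and 0.08 (SE 0.11, interval -0.17 to 0.33) in Het Hit 2 against WT DMSO. The first was 0.02 (SE 0.098) and the second turned to 0.05 (SE 0.098) without libraries 409 and 411. Leaving out library 409 alone gave 0.05 and 0.02. The first was 0.03 with a sex covariate and 0.03 without the WT libraries read as female, and the third turned to -0.01 and -0.02 in these settings. The Fan1 values ran over 24 alternatives from 0.02 (without libraries 409 and 411) to 0.19 (without library 413) in Het DMSO against WT DMSO, from -0.08 (without library 420) to 0.05 (without libraries 409 and 411) between the Het groups and from -0.02 (without the WT libraries read as female) to 0.15 (without library 413) in Het Hit 2 against WT DMSO.

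Lig1 encodes the DNA ligase that seals nicks after replication and long-patch repair. It stood at 20.3, 22.7, 24.8 and 21.8 CPM in WT DMSO libraries 413, 425, 426 and 431. Libraries 409, 411, 420 and 429 of the Het DMSO group had 35.6, 31.3, 21.5 and 23.4 CPM. Libraries 410, 421, 422 and 430 of the Het Hit 2 group had 23.0, 22.1, 21.7 and 22.8 CPM. Libraries 409 and 411 were above the other 10, as they were in 10.6% of all genes tested, and the remaining 10 lay within 20.3 to 24.8 CPM. Log2 fold changes were 0.32 (SE 0.16, interval -0.02 to 0.66, adjusted p 0.616) in Het DMSO against WT DMSO and -0.32 (SE 0.16, interval -0.66 to 0.02, adjusted p 0.898) for Hit 2 against DMSO in Het mice. Het Hit 2 and WT DMSO differed by -0.000908 (SE 0.16, interval -0.34 to 0.34). Without library 409 alone the first 2 values were 0.175 and -0.182, and without both 409 and 411 they were each -0.01 (SE 0.095 in each), and the coefficient of variation went from 18.7% to 5.58%, the lowest of the 8. The Lig1 values ran over 24 alternatives from -0.01 (without libraries 409 and 411) to 0.43 (without library 420) in Het DMSO against WT DMSO, from -0.43 (without library 420) to -0.01 (without libraries 409 and 411) between the Het groups and from -0.05 (without library 413) to 0.09 (the sex covariate) in Het Hit 2 against WT DMSO. Lig1 reads on the other strand were 9.91%, and 247 bases of its exons overlap Zswim9 there.

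Ogg1 encodes the glycosylase that removes oxidised guanine at the start of base excision repair. It was the least read of the 8, with 42 to 147 reads per library. It stood at 3.03, 3.46, 2.82 and 3.72 CPM in WT DMSO libraries 413, 425, 426 and 431. Levels in Het DMSO were 3.55, 6.16, 2.61 and 3.63 CPM in libraries 409, 411, 420 and 429. Levels in Het Hit 2 were 3.71, 3.56, 2.92 and 3.61 CPM in libraries 410, 421, 422 and 430. Library 411 stood apart as the highest, and the other 11 were within 2.61 and 3.72 CPM. As a log2 fold change, the difference was 0.29 (SE 0.25, interval -0.26 to 0.84) in Het DMSO against WT DMSO, -0.21 (SE 0.25, interval -0.76 to 0.34) in Het Hit 2 against Het DMSO and 0.08 (SE 0.25, interval -0.47 to 0.63) in Het Hit 2 against WT DMSO. Without libraries 409 and 411 the first turned to -0.06 (SE 0.20) and the second to 0.13 (SE 0.20), and without library 411 alone they were 0.03 and 0.04. The Ogg1 values ran over 24 alternatives from -0.06 (without libraries 409 and 411) to 0.44 (without library 420) in Het DMSO against WT DMSO, from -0.36 (without library 420) to 0.13 (without libraries 409 and 411) between the Het groups and from -0.04 (1 surrogate variable) to 0.15 (without library 422) in Het Hit 2 against WT DMSO. On the other strand lay 42.6% of reads over Ogg1, whose exons overlap 232 bases of Camk1, so reads of the 2 genes may be mixed there. Counts with and without regard to strand gave Ogg1 the same direction in all 3 comparisons.

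**Figure D3:**
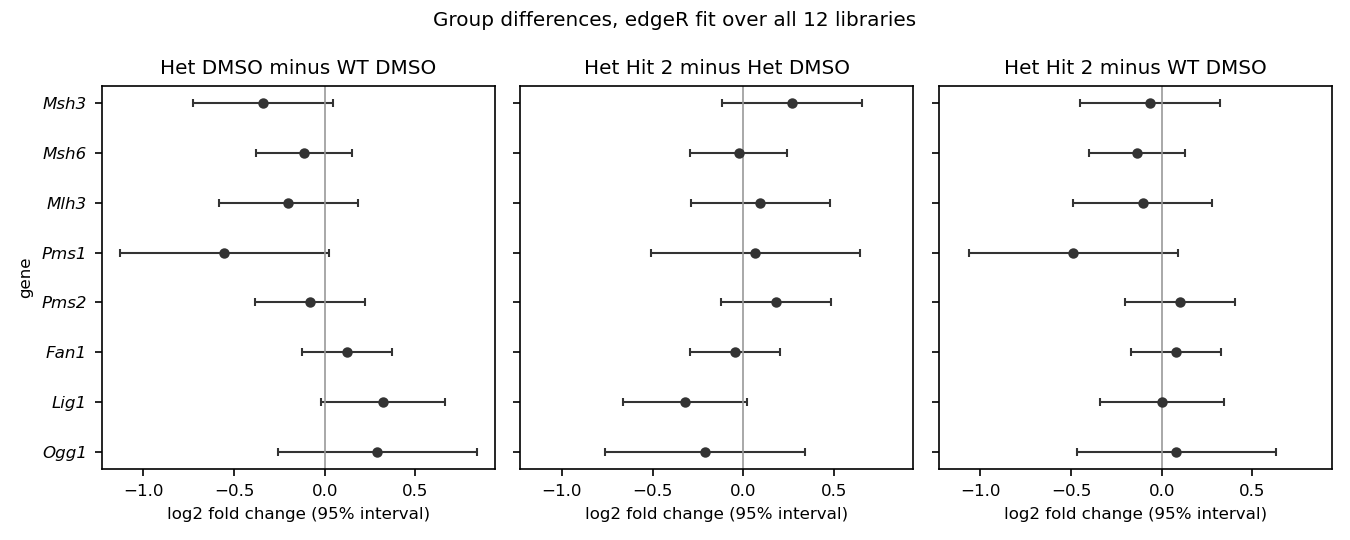
Log2 fold change (horizontal axis) of each gene in the 3 comparisons, from the edgeR fit over all 12 libraries. Points are estimates and bars are 95% intervals; every bar crosses zero, with Pms1 in Het DMSO against WT DMSO spanning -1.13 to 0.02 and Lig1 spanning -0.02 to 0.66.

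Libraries 409 and 411 departed together in Msh3, where both were lowest, and in Lig1, where both were highest, and singly in other genes. Library 409 was the lowest of the 12 for Msh3 and Mlh3 and the highest for Fan1 and Lig1. Library 411 was the lowest for Msh6, Pms1 and Pms2 and the highest for Ogg1. Without the 2 libraries, coefficients of variation over the remaining 10 were 9.78% for Msh3, 8.48% for Msh6, 8.30% for Mlh3, 19.3% for Pms1, 11.5% for Pms2, 6.82% for Fan1, 5.58% for Lig1 and 12.5% for Ogg1. The median of all genes tested was 14.2% over the same 10 libraries. Pms1 was then the most variable of the set, with its highest library 1.97-fold over its lowest, and the other 7 stayed within 1.23-fold to 1.42-fold.

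**Figure D4:**
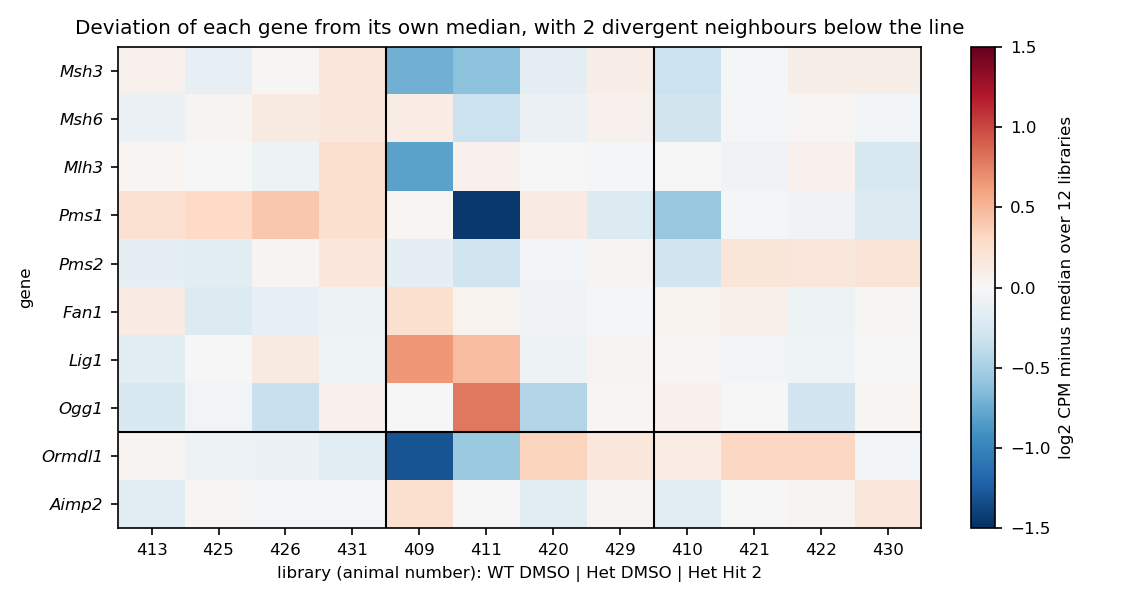
Deviation of log2 CPM from each gene's median over the 12 libraries (colour, log2 scale) for the 8 genes and, below the line, the neighbours Ormdl1 and Aimp2. Columns are libraries in the order WT DMSO, Het DMSO and Het Hit 2; the darkest cells are in columns 409 and 411, and the Pms1 line is above its median in all 4 WT libraries.

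Levels of different genes were compared per length, as CPM per kilobase of merged exons (RPKM), over all 12 libraries. From highest to lowest, the mean levels per length were 8.86 ± 0.896 RPKM for Msh6, 7.20 ± 1.94 for Pms1, 5.68 ± 1.06 for Lig1, 4.30 ± 0.772 for Msh3, 3.88 ± 0.323 for Fan1, 3.76 ± 0.468 for Pms2, 3.52 ± 0.530 for Mlh3 and 1.63 ± 0.412 for Ogg1 (SD over 12 libraries). For each neighbouring pair in this order except Mlh3 and Ogg1, the ranges of mean ± SD overlapped. Within groups some neighbours changed places. In Het DMSO, Lig1 at 6.55 ± 1.55 RPKM was above Pms1 at 6.14 ± 2.39, and Fan1 at 4.03 ± 0.370 was above Msh3 at 3.72 ± 1.00. In WT DMSO, Mlh3 at 3.77 ± 0.364 was above Pms2 at 3.74 ± 0.412 and Fan1 at 3.70 ± 0.371, and in Het Hit 2, Pms2 at 4.01 ± 0.600 was above Fan1 at 3.91 ± 0.180 (SD, n = 4 each). The order depended on which exons counted as the gene. With the longest protein-coding transcript, Pms1 led at 17.8 ± 4.79 RPKM and Msh3 came next at 12.3 ± 2.20, ahead of Msh6 at 9.06 ± 0.916. Msh3 per length was then above Msh6, whereas over merged exons it was below: the mean log2 ratio of the levels per length was 0.42 by the longest transcript and -1.06 by merged exons.

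**Figure D5:**
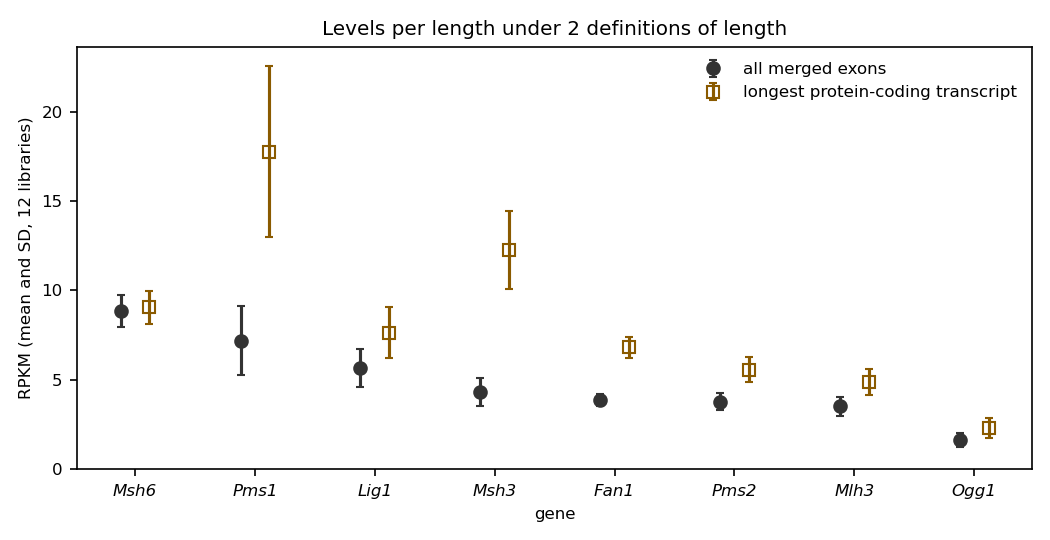
Level per length of the 8 genes (vertical axis, RPKM from 0, mean and SD over 12 libraries) by merged exons (filled circles) and by the longest protein-coding transcript (open squares). Ogg1 is the lowest by both lengths, and Msh6 leads by merged exons while Pms1 leads by the longest transcript.

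Other genes of these pathways were read out from lists. Of 14 other mismatch repair genes (the nuclease Exo1, the clamp Pcna, its loader, the single-strand binding proteins and DNA polymerase delta), 0 were called in any comparison, with median log2 fold changes of 0.03, -0.06 and -0.01 in the 3 comparisons in the order used above. The clamp loader subunit Rfc1 stood at 45.9 ± 2.62, 39.5 ± 12.1 and 46.8 ± 2.61 CPM (SD, n = 4) in WT DMSO, Het DMSO and Het Hit 2. Of 20 genes of base excision and single-strand break repair, 19 were tested and 0 called, with medians of 0.11, -0.11 and 0.05. The glycosylases Nthl1 (2.45 ± 0.304, 3.35 ± 1.30 and 2.84 ± 0.350 CPM) and Neil1 (12.2 ± 1.39, 15.7 ± 5.76 and 13.6 ± 1.32 CPM) had, like Ogg1, their largest SD in Het DMSO. Library 409 was their highest, at 5.00 CPM for Nthl1 and 24.2 CPM for Neil1, where for Ogg1 it was library 411. Medians of all genes tested were 0.05, -0.04 and 0.02. Without libraries 409 and 411 the medians were -0.05, -0.03 and -0.02 for the 14 mismatch repair genes. They were -0.01, 0.004 and 0.04 for the 19 of base excision and single-strand break repair, and -0.01, 0.01 and 0.01 for all genes.

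Of 12 genes of crosslink repair, the pathway of Fan1, 0 were called and the medians were -0.01, -0.04 and 0.05. Omitting libraries 409 and 411, they were -0.02, 0.03 and 0.04. Ube2t, the conjugating enzyme of that pathway, stood at 1.75 ± 0.599, 1.10 ± 0.660 and 2.10 ± 0.372 CPM, and was the 1 gene of the list at an unadjusted p under 0.05 (0.0475, adjusted p 0.898, log2 fold change 0.94 in Het Hit 2 against Het DMSO), where 1.55% of all genes were. Its lowest library was 411, at 0.353 CPM, and the other 3 Het DMSO libraries stood at 1.01 to 1.96 CPM. Leaving out libraries 409 and 411, the Ube2t value was 0.46 (SE 0.36, unadjusted p 0.230, adjusted p 0.983). Fancm, also of that list, stood at 45.5 ± 4.47, 36.3 ± 9.38 and 43.9 ± 3.94 CPM, with library 409 the lowest at 24.4 CPM. Fance, a core protein of the same pathway, was at 45.5 CPM in library 409 and at 18.6 CPM in library 411, its highest and lowest. Their log2 fold changes in Het DMSO against WT DMSO were -0.33 for Fancm and 0.35 for Fance. Of 2 further modifiers of onset in CAG disorders, Ccdc82 and Rrm2b, 0 were called. Ccdc82 stood at 60.6 ± 8.43, 47.6 ± 18.2 and 60.3 ± 3.51 CPM in WT DMSO, Het DMSO and Het Hit 2, with library 409 the lowest at 20.7 CPM. Means of Rrm2b, a ribonucleotide reductase subunit, were 19.2 ± 2.61, 20.7 ± 11.1 and 22.4 ± 3.68 CPM. Of 12 genes of dividing cells, in which mismatch repair is active during replication, 9 were tested and 0 called, with medians of -0.17, 0.11 and -0.06. Tyms, which makes thymidylate, was the 1 at an unadjusted p under 0.05, where 7.11% of all genes were. Its log2 fold change was -0.51 in Het DMSO against WT DMSO (unadjusted p 0.0400, adjusted p 0.616). Leaving out libraries 409 and 411, that value was -0.46 (SE 0.17, unadjusted p 0.0202, adjusted p 0.671), and 1172 of 20105 genes were at an unadjusted p under 0.05. In that fit 9 of 10 genes of the list were below zero in this comparison, with a median of -0.20 and 0 called.

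Genes most like each of the other members over the 12 libraries were Zfp74 and Alg10b for Msh3 (Pearson r 0.980 and 0.978), E2f7 and Cenpu for Msh6 (0.952 and 0.935) and Ralgapb and Hibch for Mlh3 (0.978 and 0.962). For Pms2 they were Psmf1 and Dpm1 (0.918 and 0.908), for Fan1 Sema3g and Ppif (0.883 and 0.861), for Lig1 Nipal3 and Eif4b (0.977 and 0.973) and for Ogg1 Fam210b and Paip2b (0.971 and 0.950). Without libraries 409 and 411 the Lig1 values went to 0.794 and 0.764, those of Mlh3 to 0.868 and 0.811 and those of Msh6 to 0.913 and 0.886. That of Dpm1 with Pms2 rose to 0.958, and the other 7 lay between 0.850 and 0.927. The 12 libraries differ in depth and in tissue composition, and each r is a description over libraries that all genes share, for genes picked as those with the highest r.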

How the data were processed

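RNA from whole cerebellum of 12 mice was sequenced from directional libraries depleted of ribosomal RNA, from 500 ng of RNA with 13 amplification cycles and paired reads of 100 bases, per the labels. The deposited values are the authors' raw counts for each gene, with 1 table for each library and no normalization. STAR 2.7.10a, FastQC 0.11.9 and the build GRCm39 (mm39) are named in the submitters' processing notes, and the annotation release is not given in the sources used here. Counts of the opposite strand were used. Reads over no feature on the counted strand (44.7% to 54.6% of a library) and multimapping, unmapped or ambiguous reads stayed out of library sizes and tests.

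Gene identifiers were matched to GENCODE M21 (GRCm38) for symbols, exon lengths and overlaps (55141 of 55401 matched). Promoter windows are RefSeq GRCm38.p6, and all 8 genes had one. With edgeR 4.0.16 in R 4.3.3, filterByExpr kept 19378 genes, TMM factors scaled the libraries, and all 12 entered 1 quasi-likelihood fit with a coefficient per group. Tests were two-sided, with Benjamini-Hochberg adjustment over all genes tested. Levels are CPM on the scaled library sizes, and likeness was computed on log2 CPM (prior count 2). The fit was tested on simulated data.

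The members and lists were chosen with earlier results of these data known. All 8 members are named. From each list of pathway genes, genes past the threshold are named, or otherwise up to 3 with the smallest p over the 3 groups. Ormdl1 and Aimp2 are named as neighbours. Some other genes of these pathways are not reported here. Alternatives were DESeq2 1.42.0, limma 3.58.1 with library weights, RLE factors, other filters, unstranded counts, 2 groups at a time, robust fitting, 1 surrogate variable (sva 3.50.0), a sex covariate, omission of libraries 409 and 411, and omission of each library. Omission of the 2 libraries read as female and the length of the longest transcript were added after the data were seen. Libraries are separate mice, and no animal number appears in 2 groups, so none were paired.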

Additional observations from a re-analysis of the deposited data

Results flagged for a closer look

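In groups of 4 libraries, the gap of the lowest or highest library to the nearest of the others was checked against Dixon's 95% limit for each of the 8 genes in each of the 3 groups. Of 24 checks, 2 passed the limit, where 1.2 are expected by chance. Mlh3 in Het DMSO library 409 stood at 15.8 CPM, with the next library at 27.2 CPM. The same library had 0.0795% of its gene reads on the mitochondrial genome, and the part of that difference in the Mlh3 value was not tested. Pms2 in Het Hit 2 library 410 stood at 25.2 CPM, with the next library at 34.7 CPM. That library was also the lowest of its group for the summed Purkinje cell markers, at 3098 CPM.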

How the results depend on the processing

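No paired analysis was possible because animal numbers do not recur between groups. The count of members called was 0 under each of the 24 alternatives in each pairwise comparison and under each of 23 in the test over the 3 groups. The smallest adjusted p was 0.286 (Het DMSO and WT DMSO), 0.624 (both Het groups), 0.111 (Het Hit 2 and WT DMSO) and 0.283 (all 3 groups). At least 1 member had an unadjusted p under 0.05 under 7, 2, 4 and 5 alternatives in the same order, with at most 2 members at a time, among Pms1, Lig1, Msh3 and Pms2. In those settings 5.83% to 14.4%, 5.79% to 6.11%, 3.81% to 12.9% and 5.01% to 8.21% of all genes were at that p. Of 576 fold changes, 543 kept their sign and 14 moved by over 1 SE: 6 without libraries 409 and 411, 6 with limma's library weights and 2 without library 411. By the longest transcript, levels per length were 6.81 RPKM for Fan1, 7.64 for Lig1, 5.57 for Pms2, 4.87 for Mlh3 and 2.30 for Ogg1, and the log2 ratio of Pms1 to Pms2 was 1.62 against 0.88 by merged exons. Unstranded counts put Msh6 at 9.91 RPKM.

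Calls over all genes varied with the setting. Het DMSO against WT DMSO gave 1 gene with edgeR, 43 with DESeq2, 98 with limma's weights, 18 without libraries 409 and 411, 9 without 411, 4 without 409, 2 with a surrogate variable and 0 without 429, with only the 2 groups, or without the libraries read as female. Het Hit 2 against WT DMSO gave 1, 24, 221, 90, 14 and 5 in the first 6 of these settings, 54 with only the 2 groups, 4 with no filter, 2 with unstranded counts or without 429, and 0 with a surrogate variable, with the sex covariate, without the libraries read as female, or without any 1 WT DMSO or Het Hit 2 library. Het Hit 2 against Het DMSO gave 0 in all settings. With 4 mice a group and 42 to 147 reads of Ogg1 a library, counting error adds most to Ogg1. The annotation used for lengths and overlaps is on GRCm38, and the counts were made on GRCm39.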
